A study of Homo sapiens with 9 samples.

Results

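Replication-independent histone variants are made throughout the cell cycle and take the place of the histones laid down at the replication fork. The 8 genes described here encode H2A.Z (H2AZ1 and H2AZ2), H2A.X (H2AX), H3.3 (H3-3A and H3-3B), macroH2A (MACROH2A1 and MACROH2A2) and the linker histone H1.10 (H1-10). They were taken from the deposited tables by gene symbol and are 8 of 60966 genes, with 71 of 244443 transcripts. RNA was sequenced from H1299, a human cell line of non-small cell lung cancer, transfected with a scrambled siRNA (Scramble) or with 1 of 2 siRNAs against FIBP (Si-FIBP#1 and Si-FIBP#2), with 3 samples in each group. FIBP is an intracellular protein that binds acidic fibroblast growth factor. By the labels, the groups differ only in the siRNA, and each library was made from the poly(A)-selected RNA of a whole culture of this 1 line. The labels do not say whether the samples of a group were separate transfections, so the p-values measure the spread between these samples, which may be technical.

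Most replication-dependent histone mRNAs end in a stem-loop and carry no poly(A) tail, whereas the mRNAs of these variants, apart from H2AX, are polyadenylated. H2AX has mRNAs of both kinds. H2A.Z is placed at promoters and enhancers by the SRCAP and p400 complexes and removed by ANP32E. H2A.X is phosphorylated around DNA double-strand breaks, H3.3 is deposited at active genes by HIRA and at repeats by DAXX and ATRX, and macroH2A carries a large globular domain that marks silent chromatin. In these poly(A)-selected bulk libraries, fewer cells making an mRNA and less mRNA per cell cannot be told apart.

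FIBP mRNA was 81.9 FPKM (fragments counted relative to transcript length and library size) in Scramble, 6.52 after Si-FIBP#1 and 7.09 after Si-FIBP#2 (mean, n = 3 per group). Values are sums over the transcripts of a gene. Depth was estimated from the smallest steps of the values at 20250000 to 24200000 fragments per library. All samples had KRT8, KRT18 and VIM mRNA, whereas EPCAM and the markers of leukocytes, endothelium, hepatocytes and fibroblasts (PTPRC, PECAM1, ALB and COL1A1) had group means of at most 1.09 FPKM.

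Of the 8 genes, 4 fell after Si-FIBP#1 and the same 4 after Si-FIBP#2, and 0 were higher with either siRNA. Across the 14985 genes tested, 19.9% were lower and 27.8% higher after Si-FIBP#1, and 17.7% were lower and 31.1% higher after Si-FIBP#2 (limma on log2(FPKM + 1), adjusted p below 0.05). The genes that fell were H2AZ1, H2AX, H1-10 and H2AZ2, in the order of the size of the fall. H2AZ1 and H2AX passed the 2-fold threshold of the study with each siRNA, which 3.11% and 2.13% of all genes did in that direction. The genes of H3.3 and macroH2A did not pass the test against Scramble with either siRNA. The median difference of the 8 genes was -0.32 after Si-FIBP#1 and -0.08 after Si-FIBP#2 on the log2 scale, beside 0.07 and 0.11 over all genes. In the plot of values by sample, the first 4 panels show the genes that fell.

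The promoters of the 4 genes that fell are shown because these genes moved in the same direction. The sequences are from RefSeq (GRCh38.p14) and run from 250 bases before the start site to 20 bases after it, out of the 300 bases searched. Capitals mark the CCAAT box (CCAAT or ATTGG), the cell cycle homology region (CHR, TTTGAA or TTCGAA, or TTCAAA on the other strand) and the TATA box (TATAAA or its reverse complement TTTATA).

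H2AZ1 (minus strand, chr4:99950256-99950525): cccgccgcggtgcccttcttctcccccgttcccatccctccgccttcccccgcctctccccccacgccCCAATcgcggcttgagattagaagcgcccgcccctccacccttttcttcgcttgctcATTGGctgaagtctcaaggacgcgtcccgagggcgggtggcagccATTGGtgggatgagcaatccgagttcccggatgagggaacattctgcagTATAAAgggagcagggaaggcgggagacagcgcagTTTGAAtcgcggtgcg

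H2AX (minus strand, chr11:119095446-119095715): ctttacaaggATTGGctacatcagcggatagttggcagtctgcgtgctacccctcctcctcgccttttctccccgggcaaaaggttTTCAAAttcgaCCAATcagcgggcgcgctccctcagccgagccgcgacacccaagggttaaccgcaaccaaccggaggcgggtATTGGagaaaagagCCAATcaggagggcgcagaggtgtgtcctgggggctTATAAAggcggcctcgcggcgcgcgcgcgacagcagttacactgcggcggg

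H1-10 (minus strand, chr3:129316267-129316536): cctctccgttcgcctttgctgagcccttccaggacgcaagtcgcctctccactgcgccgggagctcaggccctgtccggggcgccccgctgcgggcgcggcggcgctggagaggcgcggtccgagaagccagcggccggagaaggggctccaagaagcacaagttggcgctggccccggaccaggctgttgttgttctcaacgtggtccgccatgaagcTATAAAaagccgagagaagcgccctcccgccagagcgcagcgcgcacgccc

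H2AZ2 (minus strand, chr7:44848068-44848337): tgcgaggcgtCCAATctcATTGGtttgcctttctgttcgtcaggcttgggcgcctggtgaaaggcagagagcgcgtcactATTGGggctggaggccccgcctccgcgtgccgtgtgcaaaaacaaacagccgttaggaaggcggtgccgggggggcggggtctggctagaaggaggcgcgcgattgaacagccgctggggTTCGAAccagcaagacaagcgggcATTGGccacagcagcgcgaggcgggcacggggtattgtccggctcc

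All 8 genes had at least 1 promoter in the RefSeq table, and there were 12 promoters in all. H3-3A and MACROH2A1 were each listed with alternative promoters, and some of those of H3-3A overlap, so the 12 are not separate genes. The CCAAT box was found 3 times in the H2AZ1 promoter and 4 times each in those of H2AX and H2AZ2, and the H1-10 promoter held none. It was present in 8 of the 12 promoters and in 34.6% of the 35116 promoters in the table. The H3-3B promoter, whose gene did not fall, also held 4. The CHR was present in 3 of the 12, those of H2AZ1, H2AX and H2AZ2, and in 16.4% of all promoters. A TATA box lay with its first base 31 bases before the start site in H2AZ1, H2AX and H1-10 and 29 bases before it in H3-3B, and 11.5% of all promoters held one. The E2F words searched (TTTCCCGC, TTTGGCGC, TTTCGCGC and TTTGCCGC, both strands) were found in none of the 12 promoters and in 3.31% of all. The GC box (GGGCGG, both strands) was found in 8 of the 12 and in 45% of all. These matches are a description of letters, with no overlap between the CCAAT, CHR and TATA matches printed.

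In Scramble cells the order of the gene levels was H2AZ1, H3-3B, H3-3A, H2AX, H2AZ2, MACROH2A1, H1-10 and MACROH2A2. The means ran from 775 FPKM for H2AZ1 to 7.93 FPKM for MACROH2A2. The ranges of neighbours in this order overlapped only for H2AX (134 to 143 FPKM) and H2AZ2 (132 to 143 FPKM). This leaves out H3P6, a pseudogene described below whose reads cannot be told from those of H3-3A. With its FPKM added to H3-3A, H3-3B made up 50.3% of the sum in Scramble, so the order of H3-3B and H3-3A rests on leaving it out. The summed FPKM of the 8 genes was 1852, 1907 and 2048 in Scramble, 1207, 1223 and 1294 after Si-FIBP#1 and 1453, 1479 and 1419 after Si-FIBP#2. The samples of the 3 groups did not overlap in this sum.

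H2AZ1 (ENSG00000164032, chromosome 4, 99948086 to 99950388, minus strand of GRCh38) encodes the main form of H2A.Z and was the most abundant gene of the set. It was 753, 772 and 799 FPKM in the Scramble samples, 302, 313 and 331 FPKM after Si-FIBP#1 and 317, 278 and 298 FPKM after Si-FIBP#2. Every depleted sample lay below every Scramble sample, which was also so for 16.5% of all genes. The means were 775 ± 23.3, 315 ± 14.7 and 298 ± 19.7 FPKM (SD, n = 3), so that 40.7% and 38.4% of the Scramble level were left. The difference was -1.29 ± 0.06 (SE) on the log2(FPKM + 1) scale after Si-FIBP#1 (limma, adjusted p = 4.43e-07) and -1.38 ± 0.06 after Si-FIBP#2 (adjusted p = 5.36e-07).

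H2AZ2 (ENSG00000105968, chromosome 7, 44826791 to 44848083, minus strand) encodes the second H2A.Z protein. Its coding sequence of 384 nt differs from that of H2AZ1 at 75 positions (80.5% identity), with identical runs of at most 23 nt, and the 2 proteins differ at 3 residues. H2AZ2 was 132, 141 and 143 FPKM in Scramble, 102, 107 and 113 FPKM after Si-FIBP#1 and 119, 121 and 120 FPKM after Si-FIBP#2. The depleted samples again lay below all Scramble samples, by a smaller step than for H2AZ1. The difference was -0.36 ± 0.05 after Si-FIBP#1 (limma, adjusted p = 3.24e-04) and -0.21 ± 0.05 after Si-FIBP#2 (adjusted p = 0.0076).

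The share of H2AZ1 in the sum of both genes was 84.8% ± 0.29 in Scramble, 74.6% ± 0.16 after Si-FIBP#1 and 71.3% ± 1.52 after Si-FIBP#2 (SD, n = 3), with no overlap between Scramble and depleted samples. The 6 depleted samples were lower by 11.9 percentage points on average. This share was formed after the values of both genes were seen and follows from their differences, so it is a description, with no test.

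The fall of H2AZ1 was that of its main mRNA, ENST00000296417. This transcript took 98.2% of the gene sum in Scramble and was 761 FPKM there, 297 FPKM after Si-FIBP#1 and 283 FPKM after Si-FIBP#2. The log2 differences were -1.36 (limma over 47662 transcripts, adjusted p = 7.36e-06) and -1.42 (adjusted p = 9.27e-06). Of the 4 transcripts annotated as retained introns, ENST00000511348 was the most abundant (5.22, 5.67 and 5.22 FPKM), 1 was listed at 0 in all samples, and ENST00000511203 was lower in all depleted samples (0.20 to 0.71 FPKM) than in Scramble (0.83 to 1.67 FPKM), below the filter of the test. The summed FPKM of the 4 was 9.26, 8.07 and 8.03 in Scramble, 7.89, 7.14 and 7.69 after Si-FIBP#1 and 6.27, 9.45 and 6.66 after Si-FIBP#2, and the groups overlapped. Their share in the gene sum, also formed after the values were seen and given with no test, was 1.09% ± 0.12 in Scramble, 2.41% ± 0.18 after Si-FIBP#1 and 2.54% ± 0.76 after Si-FIBP#2. ENST00000651623, whose length in the tables differs from that of the main mRNA by 2 nt (868 against 866), was 5.02 FPKM in Scramble, 10.7 FPKM after Si-FIBP#1 and 6.92 FPKM after Si-FIBP#2. It was called higher after Si-FIBP#1 (limma, adjusted p = 0.0499), and this call was lost with a pseudocount of 0.1, with median ratio scaling, without the filter on low values (0.143) and without Scramble replicate 2 or any 1 sample of Si-FIBP#1. How the reads of these 2 transcripts were divided cannot be told from the tables.

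The change of each transcript was also tested against the sum of the other transcripts of its gene. Of the 49 transcripts of the 8 genes that this test covered, 5 were called after Si-FIBP#1 and 4 after Si-FIBP#2, beside 3.39% and 1.7% of all transcripts covered. All 4 H2AZ1 transcripts tested were among them with both siRNAs, and the fifth was ENST00000333762 of H1-10 after Si-FIBP#1. The main H2AZ1 mRNA took 98.2% of the gene sum in Scramble, so it is nearly all that each other H2AZ1 transcript is set against. A minor transcript that stays level rises in this ratio when the main mRNA falls, so the H2AZ1 calls are not separate events. For the main H2AZ1 mRNA the log2 ratio to the other transcripts fell by 1.76 after Si-FIBP#1 (limma, adjusted p = 0.0035) and by 1.52 after Si-FIBP#2 (adjusted p = 0.0078). For the retained-intron transcript ENST00000511348 it rose by 1.42 (adjusted p = 0.023) and 1.37 (adjusted p = 0.0362). By diffSplice, which sets a transcript against its gene in another way, it was 0.27 (adjusted p = 0.642) and 0.32 (adjusted p = 0.586), and ENST00000511319, the other retained-intron transcript tested, was not called either. With a pseudocount of 0.1 the calls of both retained-intron transcripts tested were lost with each siRNA, as were those of ENST00000651623 after Si-FIBP#2 and of ENST00000333762, whereas that of the main mRNA was kept. The panels of H2AZ1 transcripts by sample show a fall in the main mRNA and overlapping groups in the retained-intron sum.

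**Figure D1:**
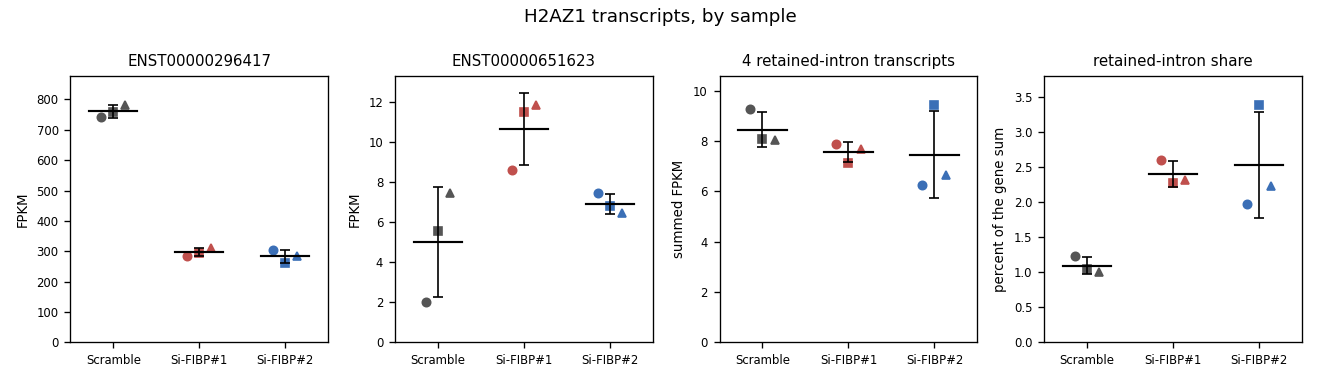
FPKM of the main H2AZ1 mRNA, of ENST00000651623 and of the 4 retained-intron transcripts summed, and the percent of the gene sum in the latter, in the 3 samples of each group (symbols as replicates 1 to 3, line and bars the mean and SD, n = 3, axes from 0). The main mRNA goes from 761 to 297 and 283 FPKM, while the retained-intron sum is 8.45, 7.57 and 7.46 FPKM and its share is 1.09%, 2.41% and 2.54%.

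H2AX (ENSG00000188486, chromosome 11, 119093854 to 119095467, minus strand) encodes H2A.X, the substrate of the DNA damage kinases. It was 143, 143 and 134 FPKM in Scramble, 59.6, 61.6 and 60.1 FPKM after Si-FIBP#1 and 63.1, 51.2 and 54.4 FPKM after Si-FIBP#2. Scramble and depleted samples were far apart, and the 2 depleted groups overlapped. The levels left were 43.1% and 40.1% of Scramble. The difference was -1.20 ± 0.07 after Si-FIBP#1 (limma, adjusted p = 2.10e-06) and -1.31 ± 0.07 after Si-FIBP#2 (adjusted p = 1.66e-06).

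H2AX is known for having both kinds of mRNA end, a stem-loop like that of the replication-dependent histones and a downstream poly(A) site. The stem-loop motif was searched in the 56 transcripts of the 8 genes found in GENCODE release 29. It was present in 2 transcripts, both of H2AX, after the coding sequence, at chr11:119094898-119094913 (minus strand). The motif is in capitals below, with 4 bases on each side.

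H2AX stem-loop: caaaGGCCCTTTTAAGGGCCacca

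In ENST00000530167, the longer H2AX transcript of 1614 nt, the motif covers nucleotides 555 to 570. Poly(A)-selected libraries take up the longer mRNA that reads past this motif, so the H2AX mRNA that ends at the stem-loop was not measured here. ENST00000530167 fell from 126 FPKM in Scramble to 51.5 FPKM after Si-FIBP#1 and 46.9 FPKM after Si-FIBP#2. The other transcript, ENST00000375167, is annotated as a target of nonsense-mediated decay and was 14.6, 8.86 and 9.29 FPKM. It was lower in the fit of both siRNAs against Scramble (limma, log2 difference -0.61, adjusted p = 0.0339), where 11% of all transcripts were lower, and not called for either siRNA alone. The call was lost without the filter on low values (adjusted p = 0.0997) and without Scramble replicate 1 or 3, Si-FIBP#1 replicate 2 or 3 or Si-FIBP#2 replicate 3. Its share in the gene sum was 10.4% ± 2.70 in Scramble, 14.7% ± 2.06 after Si-FIBP#1 and 16.6% ± 3.55 after Si-FIBP#2, and the samples overlapped (exact permutation test of 3 Scramble against 6 depleted samples, two-sided, p = 0.0595, where 84 splits allow no p below 0.0119). The shares of 7 transcripts were tested in this way, picked among the transcripts after their values were seen, and adjusted values are over 12 shares, those given with no test included. The adjustment does not cover the transcripts that were not picked, so the exact p-values of shares are a description. Without Scramble replicate 1, Si-FIBP#1 replicate 2 or Si-FIBP#2 replicate 3 the exact p of ENST00000375167 was 0.0357.

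H1-10 (ENSG00000184897, chromosome 3, 129314771 to 129316277, minus strand) encodes the linker histone H1.10, formerly H1X. It was 67.9, 71.6 and 68.1 FPKM in Scramble, 46.0, 41.9 and 38.3 FPKM after Si-FIBP#1 and 40.2, 42.1 and 40.3 FPKM after Si-FIBP#2. All depleted samples were below all Scramble samples, with 60.7% and 59.0% of the Scramble level left. The difference was -0.71 ± 0.07 after Si-FIBP#1 (limma, adjusted p = 2.88e-05) and -0.75 ± 0.07 after Si-FIBP#2 (adjusted p = 2.28e-05). The mRNA ENST00000333762 carried 95.7% of the gene sum in Scramble, and an assembled transcript made up the rest. The share of ENST00000333762 was lower by 2.01 percentage points in the depleted samples (exact permutation test, 3 against 6 samples, p = 0.0119, adjusted 0.0357). Without Scramble replicate 3 the difference was -1.52 percentage points (exact permutation test, p = 0.107). This transcript was also picked after its values were seen, so these exact p-values are a description.

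For these 4 genes the direction and the call against Scramble were kept for each siRNA under every scaling, filter, pseudocount and left-out sample tried. Markers of dividing cells moved with them. All 6 proliferation markers (MKI67, TOP2A, PCNA, CCNB1, CDK1 and MCM2) fell with both siRNAs, by 1.43 to 1.75 on the log2 scale after Si-FIBP#1 and by 0.97 to 1.40 after Si-FIBP#2. Their part in the falls of the histone variant genes was not tested.

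The 2 genes of H3.3 did not pass the test against Scramble. H3-3A (ENSG00000163041, chromosome 1, 226061851 to 226072001, plus strand) and H3-3B (ENSG00000132475, chromosome 17, 75776434 to 75785893, minus strand) encode the same protein from coding sequences of 408 nt that differ at 88 positions (78.4% identity, identical runs of at most 14 nt). H3-3A was 222, 248 and 284 FPKM in Scramble, 211, 198 and 211 FPKM after Si-FIBP#1 and 313, 231 and 300 FPKM after Si-FIBP#2. Its difference from Scramble was -0.27 ± 0.12 after Si-FIBP#1 (limma, adjusted p = 0.0791) and 0.16 ± 0.12 after Si-FIBP#2 (adjusted p = 0.291). H3-3B was 420, 412 and 495 FPKM in Scramble, 371, 386 and 426 FPKM after Si-FIBP#1 and 475, 629 and 483 FPKM after Si-FIBP#2. Its differences were -0.16 ± 0.11 (adjusted p = 0.258) and 0.25 ± 0.11 (adjusted p = 0.0911). Single samples and settings decided these calls. H3-3A was called lower after Si-FIBP#1 without Scramble replicate 1 (-0.36, adjusted p = 0.0392), with TPM scaling (-0.32, 0.0478) and with only the groups compared in the fit (0.0306), and called higher after Si-FIBP#2 without replicate 2 of that group (0.29, 0.0264). H3-3B was called higher after Si-FIBP#2 without Scramble replicate 3 (0.34, limma, adjusted p = 0.0463). In Si-FIBP#2 replicate 2, H3-3B was at its highest of all samples while H3-3A was the lowest of its group.

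The 2 siRNAs differed from each other in both H3.3 genes. H3-3A was higher after Si-FIBP#2 than after Si-FIBP#1 by 0.43 ± 0.12 (limma, adjusted p = 0.0353) and H3-3B by 0.42 ± 0.11 (adjusted p = 0.0359), with no overlap between the 2 groups in either gene. H2AZ2 and MACROH2A1 did not overlap between the siRNAs either, and 20.4% of all genes were higher without overlap. H3-3A and H3-3B were 2 of the 8 genes, where 9.58% of all genes were higher and 5.8% lower in this comparison. The call of H3-3A was lost without a filter on low values (adjusted p = 0.108), with median ratio scaling (0.0677) and without any one of 5 of the 6 samples compared, and that of H3-3B without the filter (0.111), with only the 2 groups in the fit (0.0539) and without Si-FIBP#1 replicate 1 (0.11), Si-FIBP#1 replicate 2 (0.0998) or Si-FIBP#2 replicate 3 (0.0509). For H3-3A these 5 samples were the 3 of Si-FIBP#1 (0.0797, 0.107 and 0.0727 without replicates 1, 2 and 3) and replicates 1 and 3 of Si-FIBP#2 (0.109 and 0.116). No other member was called between the siRNAs, and H2AZ2 had a difference of 0.16 ± 0.05 (adjusted p = 0.068), which became 0.20 (0.0319) with TPM scaling.

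The share of H3-3B in the sum of both H3.3 genes was 63.8% ± 1.53 in Scramble, 65.6% ± 1.63 after Si-FIBP#1 and 65.0% ± 7.04 after Si-FIBP#2 (SD, n = 3). The groups overlapped. In Si-FIBP#2 the samples were at 60.3%, 73.1% and 61.7%, so that replicate 2 lay apart. With H3P6, a pseudogene of 411 nt described next, added to the sum, the share was 50.3% ± 1.26, 49.98% ± 1.11 and 52.2% ± 6.52. This shift depends on the length correction of so short a gene.

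H3-3A has a processed pseudogene, H3P6 (ENSG00000235655), whose 411 nt read the same as the H3-3A mRNA. All 337 windows of 75 nt in H3P6 were found in H3-3A transcripts and none in H3-3B transcripts, so reads inside this stretch cannot be assigned to 1 of the 2 genes. H3P6 was listed at 171 to 211 FPKM in the 9 samples, with means of 184 FPKM in Scramble, 187 FPKM after Si-FIBP#1 and 201 FPKM after Si-FIBP#2. These FPKM depend strongly on the length correction, since the deposited values appear to divide by the length less an estimated 280 nt. Sums that include H3P6 carry the same limit. With H3P6 added to H3-3A, the difference from Scramble was -0.14 after Si-FIBP#1 (limma, adjusted p = 0.136) and 0.14 after Si-FIBP#2 (adjusted p = 0.135), and that between the siRNAs was 0.29 (adjusted p = 0.0288). Of 47 pseudogenes described as of the H3 family, H3P6 was the only one that reached 2 FPKM in a sample, and 40 were listed at 0 in all samples. None of the 8 H2A.Z pseudogenes reached 2 FPKM.

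The H3.3 genes are also split between short transcripts. For H3-3B, ENST00000254810 of 2705 nt took 54.5% of the gene sum in Scramble, 53.4% after Si-FIBP#1 and 47.3% after Si-FIBP#2 (exact permutation test, 3 against 6 samples, p = 0.262). ENST00000587560 and ENST00000586607 have the same length of 551 nt. The latter was listed at 0 in all 3 Scramble samples, at 11.7, 14.4 and 12.5 FPKM after Si-FIBP#1 and at 0, 10.96 and 23.25 FPKM after Si-FIBP#2. It passed the filter on low values only through depleted samples, so these values are a description, with no test. ENST00000587171 of 586 nt was 18.5, 13.7 and 49.2 FPKM in Scramble, 42.0, 20.15 and 25.5 FPKM after Si-FIBP#1 and 58.6, 98.35 and 75.9 FPKM after Si-FIBP#2, and was called after Si-FIBP#2 (adjusted p = 0.032). This call was lost without the filter (0.0978), without Scramble replicate 1 or 2 and without Si-FIBP#2 replicate 2 or 3. For H3-3A, the share of ENST00000366815 was 12.9%, 18.5% and 10.8% (exact permutation test, 3 against 6 samples, p = 0.595). The means of the 2 siRNAs lay on opposite sides of Scramble, so a test of the 6 samples together cannot show a change with 1 siRNA. The H3-3A transcript ENST00000655399 was lower after Si-FIBP#1, at 34.0, 34.0 and 38.5 FPKM against 55.2, 61.0 and 72.5 FPKM in Scramble (limma, log2 difference -0.80, adjusted p = 0.0194). This call was lost without the filter (0.0618), without Scramble replicate 2 or 3 and without Si-FIBP#1 replicate 1 or 2. The values of transcripts this short depend on the length correction, because the deposited FPKM appear to divide by the transcript length less an estimated 280 nt. When transcripts were instead weighted by that reduced length before they were summed, H3-3A was lower after Si-FIBP#1 (log2 difference -0.20, limma, adjusted p = 0.016), and the differences between the siRNAs shrank to 0.22 (adjusted p = 0.0226) for H3-3A and 0.28 (adjusted p = 0.0266) for H3-3B.

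Neither macroH2A gene passed the test at gene level. MACROH2A1 (ENSG00000113648, chromosome 5, 135333900 to 135399914, minus strand) was 107, 112 and 118 FPKM in Scramble, 110, 108 and 107 FPKM after Si-FIBP#1 and 117, 117 and 116 FPKM after Si-FIBP#2. Both depleted groups overlapped with Scramble, with differences of -0.05 ± 0.05 (limma, adjusted p = 0.371) and 0.06 ± 0.05 (adjusted p = 0.33), the latter turning to -0.04 with median ratio scaling. MACROH2A2 (ENSG00000099284, chromosome 10, 70052796 to 70112280, plus strand) was 8.13, 7.54 and 8.13 FPKM in Scramble, 6.70, 7.70 and 7.80 FPKM after Si-FIBP#1 and 8.28, 9.31 and 7.39 FPKM after Si-FIBP#2. Its differences were -0.09 ± 0.09 (adjusted p = 0.46) and 0.06 ± 0.09 (adjusted p = 0.645). MACROH2A1 made up 93.4% of the sum of both in Scramble, 93.6% after Si-FIBP#1 and 93.3% after Si-FIBP#2. The estimated fragments behind MACROH2A2 were 250.3 to 330.7 per sample, the fewest of the 8 genes.

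**Figure D2:**
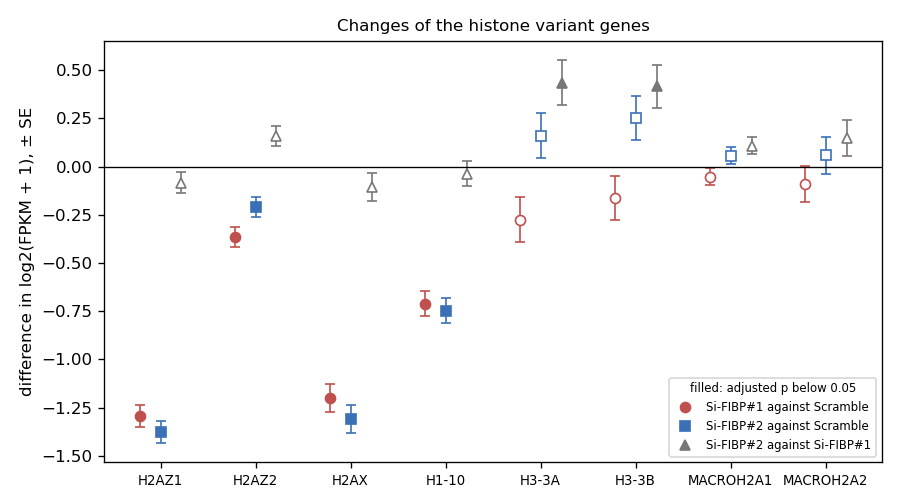
Difference in log2(FPKM + 1) with its SE (vertical axis) for each gene in 3 comparisons, with filled symbols for an adjusted p below 0.05. H2AZ1, H2AX, H1-10 and H2AZ2 are below 0 with both siRNAs, at -1.29 and -1.38 for H2AZ1, and H3-3A and H3-3B are filled only between the siRNAs, at 0.43 and 0.42.

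MACROH2A1 is spliced into 2 proteins through mutually exclusive exons. Both exons are shown because a transcript with one of them was called and those with the other were not. In GENCODE release 29 (GRCh38) the upstream exon lies at chr5:135352946-135353045 and the downstream exon, which gives the form that binds ADP-ribose, at chr5:135350823-135350913, both on the minus strand.

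MACROH2A1 upstream exon, 100 nt: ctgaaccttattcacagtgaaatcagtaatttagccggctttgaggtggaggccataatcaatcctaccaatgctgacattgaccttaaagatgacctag

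MACROH2A1 downstream exon, 91 nt: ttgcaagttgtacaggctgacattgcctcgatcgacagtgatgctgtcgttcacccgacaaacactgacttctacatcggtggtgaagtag

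ENST00000312469, the coding transcript with the downstream exon, was 22.7, 23.1 and 23.6 FPKM in Scramble, 22.7, 17.4 and 19.2 FPKM after Si-FIBP#1 and 17.0, 15.6 and 16.8 FPKM after Si-FIBP#2. It fell after Si-FIBP#2, where all samples were below Scramble (limma, log2 difference -0.47, adjusted p = 0.0108), and was not called after Si-FIBP#1, where 1 sample lay within the Scramble range. The 4 annotated transcripts with the upstream exon were together 12.6, 13.9 and 16.5 FPKM in Scramble, 13.3, 16.2 and 14.3 FPKM after Si-FIBP#1 and 21.8, 17.9 and 17.2 FPKM after Si-FIBP#2. The 3 of them that were tested were not called against Scramble, and ENST00000510038, the most abundant, had adjusted p = 0.754 and 0.172 (limma). Among annotated transcripts with 1 of the 2 exons, the downstream exon had a share of 63.1% ± 2.24 in Scramble, 59.7% ± 6.88 after Si-FIBP#1 and 49.1% ± 0.74 after Si-FIBP#2. The 6 depleted samples together overlapped with Scramble, while the 3 Si-FIBP#2 samples, at 48.3% to 49.6%, lay below the Scramble samples at 60.6% to 65.0%. This share was formed after the values were seen and was given no test.

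The most abundant MACROH2A1 transcript was an assembled one, MSTRG.21769.8, of 1833 nt, for which the tables give no exons. It was 43.9, 46.2 and 46.9 FPKM in Scramble, 45.5, 50.8 and 50.1 FPKM after Si-FIBP#1 and 52.9, 57.1 and 59.0 FPKM after Si-FIBP#2, and rose after Si-FIBP#2 (limma, log2 difference 0.30, adjusted p = 0.015). Without Scramble replicate 1 or Si-FIBP#2 replicate 3 this call was lost. Its share in the gene sum was 40.7% ± 0.83 in Scramble, 45.1% ± 3.13 after Si-FIBP#1 and 48.3% ± 2.87 after Si-FIBP#2 (exact permutation test, 3 against 6 samples, p = 0.0357, adjusted 0.0857). The share of ENST00000312469 was 20.6%, 18.3% and 14.1% (exact permutation test, 3 against 6 samples, p = 0.0714, adjusted 0.122). Both transcripts were picked after their values were seen, so these exact p-values are a description. Since MSTRG.21769.8 may hold either exon, the shares of the 2 exons in all MACROH2A1 mRNA cannot be told from these tables. Neither transcript was called against the rest of its gene.

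**Figure D3:**
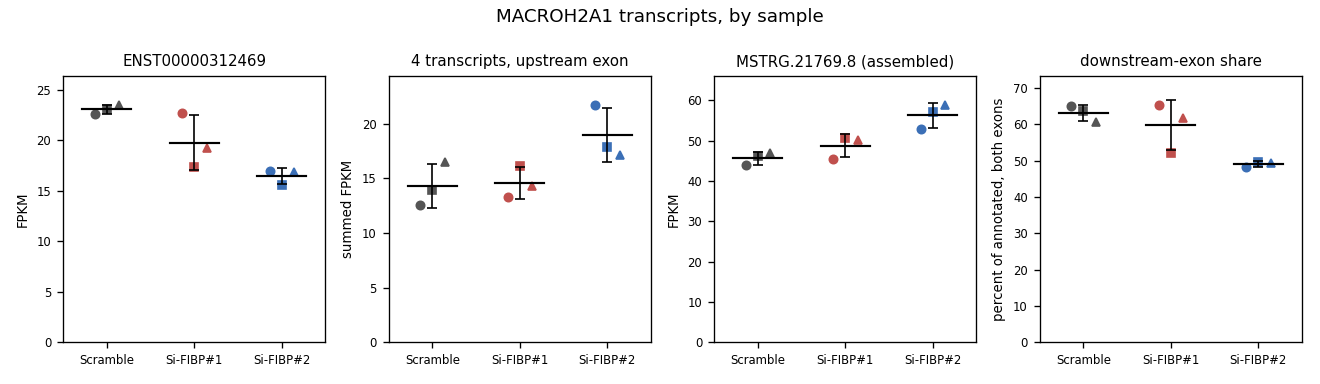
FPKM of ENST00000312469 (downstream exon), of the 4 annotated transcripts with the upstream exon summed and of the assembled MSTRG.21769.8, and the percent of the downstream exon among annotated transcripts with 1 of the 2 exons, by sample (symbols as replicates 1 to 3, line and bars the mean and SD, n = 3, axes from 0). After Si-FIBP#2 the first falls from 23.1 to 16.5 FPKM and the third rises from 45.7 to 56.3 FPKM.

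Of the 71 transcripts of the 8 genes, 50 passed the filter of 1 FPKM in 3 samples. Leaving out ENST00000586607, 1 (ENST00000651623) was higher after Si-FIBP#1 and 9 were lower, where 10.7% of all transcripts were higher and 10% lower. After Si-FIBP#2, 2 were higher and 8 lower, where 10.6% were higher and 8.46% lower. The 8 include ENST00000437072 of H2AZ2, at 1.86, 3.76 and 1.76 FPKM in Scramble and 0.37, 0.37 and 1.07 FPKM after Si-FIBP#2. It passed the filter only with the Scramble samples counted, where it was high, so its values are a description. Of the 10 H2AZ2 transcripts tested, 4 were lower after Si-FIBP#1 and 3, with ENST00000437072 counted, after Si-FIBP#2. Among them, ENST00000222690 went from 26.7 FPKM to 19.9 and 21.4 FPKM and was called with both, and ENST00000349299 went from 19.8 FPKM to 10.97 and 14.4 FPKM and was called after Si-FIBP#1. The assembled MSTRG.24160.1 went from 8.25 FPKM to 4.89 and 4.02 FPKM and was called with both. ENST00000308153, which in GENCODE release 29 holds the H2AZ2 coding sequence of 384 nt given above, was 25.4, 22.9 and 24.5 FPKM. It was called with neither siRNA (limma, adjusted p = 0.253 and 0.693). The most abundant H2AZ2 transcript, ENST00000350771, was 33.0, 29.4 and 35.4 FPKM and was called with neither (adjusted p = 0.331 and 0.622). The call of ENST00000222690 after Si-FIBP#2 was lost without the filter (0.0642), any 1 Scramble replicate or Si-FIBP#2 replicate 3, and that of MSTRG.24160.1 after Si-FIBP#1 without the filter (0.0953), Scramble replicate 1 or 2 or Si-FIBP#1 replicate 1 or 3. No H2AZ2 transcript was called against the rest of its gene. Between the siRNAs no call was made among them, where 2.46% of all transcripts were called.

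The genes that handle these variants were taken from lists chosen with earlier results of the data known. The counts below stand beside 27.8% of all genes higher and 19.9% lower after Si-FIBP#1, and 31.1% higher and 17.7% lower after Si-FIBP#2. Of 13 genes for H2A.Z exchange, 3 rose and 6 fell with each siRNA, with median differences of -0.04 and 0.09. ANP32E, the chaperone that removes H2A.Z from nucleosomes, had the lowest value after Si-FIBP#2, with 58.4 FPKM in Scramble, 23.5 after Si-FIBP#1 and 20.6 after Si-FIBP#2 (log2 differences -1.28 and -1.46). YEATS4, a subunit of both depositing complexes, was 60.9, 22.7 and 40.3 FPKM, with log2 differences of -1.40 and -0.58. SRCAP, the ATPase of its complex, rose by 0.42 and 0.37, and ZNHIT1, another subunit, by 0.44 and 0.37. EP400, the other depositing ATPase, fell by 0.39 and by 0.50.

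Of 7 genes for H3.3 deposition, 2 rose and 3 fell after Si-FIBP#1, and 2 rose and 1 fell after Si-FIBP#2. HIRA, the central subunit of its complex, was 26.3 FPKM in Scramble, 14.9 after Si-FIBP#1 and 25.7 after Si-FIBP#2, and fell by 0.78 after Si-FIBP#1 (limma, adjusted p = 1.55e-05). After Si-FIBP#2 its difference was -0.03 (adjusted p = 0.718). DAXX fell by 0.44 and by 0.33, and its partner ATRX rose by 0.26 and 0.35. UBN2, a HIRA partner, rose by 0.53 and 0.55.

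Of 13 genes for H2A.X signalling, 11 were tested, and 1 rose and 5 fell after Si-FIBP#1 and 1 rose and 4 fell after Si-FIBP#2. TP53BP1, which binds damaged chromatin, rose from 21.9 FPKM to 32.0 and 33.9 FPKM. BAZ1B, a tyrosine kinase for H2A.X, fell from 58.6 FPKM to 39.5 and 42.5 FPKM, and SSRP1 and SUPT16H, the subunits of the FACT chaperone, fell with both siRNAs. ATM and ATR, which phosphorylate the C-terminal serine, had differences between -0.10 and 0.02 and were not called. Of 6 macroH2A partners, 1 rose and 2 fell after Si-FIBP#1, and none rose and 3 fell after Si-FIBP#2. PARP1, whose ADP-ribose chains the downstream-exon form binds, fell by 0.37 and by 0.62. QKI, a splicing factor known to favour the downstream exon, was 52.7, 60.2 and 39.9 FPKM, with 0.19 after Si-FIBP#1 (adjusted p = 0.125) and -0.40 after Si-FIBP#2 (limma, adjusted p = 0.0058). MBNL1, another splicing factor, fell by 0.20 and by 0.41.

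Among 12 other histone variants, 5 were tested, of which 3 rose and 2 fell after Si-FIBP#1 and 3 rose and 1 fell after Si-FIBP#2. CENPA, the centromeric H3, fell from 35.3 FPKM to 10.8 and 14.3 FPKM. H2AJ, a replication-independent H2A, rose from 151 FPKM to 219 and 247 FPKM, in the opposite direction to H2AZ1, H2AZ2 and H2AX. H2AB2 and H2AB3, near-identical copies, had the same values in the tables, 19.1, 24.6 and 28.1 FPKM, so they count as 1 signal.

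The replication-dependent histones moved in the opposite direction. Of 66 genes, 37 were tested, and 27 rose and 1 fell after Si-FIBP#1 (median 1.34) and 26 rose and 1 fell after Si-FIBP#2 (median 1.07). Some of these genes are near-identical copies of each other, and poly(A)-selected libraries hold only the small share of their mRNA that carries a tail. H2AC6 went from 15.5 FPKM to 70.6 and 75.1 FPKM. H2AC19 had the highest log2 difference of the list after Si-FIBP#1 (2.29), with 7.46 FPKM in Scramble against 35.8 and 32.7 FPKM, and H2AC20 the lowest after both (-1.34 and -1.58), with 4.48 FPKM against 1.23 and 0.91 FPKM. Of 10 genes that process histone mRNA or carry new histones, 0 rose and 6 fell after Si-FIBP#1 and 1 rose (LSM11) and 6 fell after Si-FIBP#2. Those that fell include SLBP, the stem-loop binding protein (102, 65.7 and 51.3 FPKM), ASF1B (52.3, 20.4 and 27.9 FPKM), CHAF1A (27.1, 11.8 and 14.2 FPKM) and CHAF1B (13.1, 5.73 and 5.82 FPKM).

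The genes whose values were most like those of a member over the 9 samples were named by Pearson's r of log2(FPKM + 1). These r values are a description, since the 9 samples fall into groups that share their treatment. For H2AZ1 they were TRIM59 (r = 0.999) and TMPO (0.999), for H2AX FAM83D (0.998) and TUBB (0.997) and for H1-10 ZNF726 (0.992) and DDX41 (0.991). For H2AZ2 they were RHEB (0.991) and MAGOHB (0.99). For the genes with no call against Scramble the values were lower, with ADNP (0.972) and FOXJ3 (0.964) for H3-3A, COQ2 (0.933) and MANBAL (0.93) for H3-3B, MAP3K9 (0.95) and MMAB (0.946) for MACROH2A1 and URM1 (0.926) and HS3ST3B1 (0.926) for MACROH2A2. TMPO, a nuclear envelope protein, was 99.0 FPKM in Scramble, 42.9 after Si-FIBP#1 and 38.9 after Si-FIBP#2, and TUBB, a beta-tubulin, was 852, 398 and 375 FPKM.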

How the data were processed

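RNA-seq values of 9 H1299 samples were used, with groups and replicate numbers as labelled. For every sample the authors deposited a table of FPKM by transcript, rounded to 2 decimals. The unit was inferred from the values, HISAT2 and StringTie are named in the submitters' processing notes, and the genome build and annotation are not given in the sources used here. Library depth was inferred from the steps of low values in genes with 1 transcript of 800 to 2000 nt, and the best step divided by the length less 260 to 300 nt, as an effective-length FPKM does. These steps did not come out whole closely enough to recover reads (mean cosine 0.769 to 0.821), so no count test was run.

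FPKM were summed per gene over all its transcripts. Features that reached 1 FPKM in 3 or more samples entered limma (version 3.58.1, R 4.3.3) on log2(FPKM + 1), two-sided, with all 9 samples in the fit and Benjamini-Hochberg adjustment over all features. The comparisons with Scramble share their controls. A transcript was tested against the other transcripts of its gene by limma on the log2 ratio, in place of diffSplice, which had been planned and made too many false calls on simulated data. Shares of single transcripts were compared by an exact permutation test, and other shares are given with no test. The members and lists were chosen with earlier results of these data known. The 8 genes were named in full. Of the 53 transcripts with a group mean of at least 1 FPKM, which the naming rule covers, those on which a comparison turned are described and the others are given by counts. Also named were the list genes over 2-fold (replication-dependent histones by count) or at the ends of a list, some list genes named for their role after their values were seen, and the 2 most alike genes per member. Alternatives were other pseudocounts, filters and scalings, only the groups compared, the replicate number as a block, annotated transcripts only and each sample left out, and, chosen after seeing the data, the exchange of diffSplice for the log ratio, a fragment-weighted sum and H3P6 added to H3-3A.

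Positions and transcript types are from GENCODE release 29 (GRCh38), linked by Ensembl identifier. It held 56 of the 71 transcripts, 51 with the same length. Lengths differed for ENST00000296417 (979 nt in the release, 866 nt as deposited), ENST00000308153 (752 and 3026 nt) and ENST00000366815 (1088 and 2263 nt). They also differed for ENST00000333762 (1507 and 1516 nt) and ENST00000373255 (1980 and 1932 nt). Types and coding sequences given for these transcripts are those of the release. Apart from identifiers, gene symbols, descriptions (for the pseudogenes) and lengths, annotation columns of the tables were not used. FPKM carry no counting interval, so precision is given by the spread between samples. Values of some listed genes are not reported here.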

Additional observations from a re-analysis of the deposited data

Results flagged for a closer look

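H3-3A and H3-3B stood out because the 2 siRNAs differed in them by the direct comparison. H3-3A was higher with Si-FIBP#2 than with Si-FIBP#1 by 0.43 on the log2 scale (limma, adjusted p = 0.0353), at 281 FPKM against 206 FPKM. H3-3B was higher by 0.42 (adjusted p = 0.0359), at 529 FPKM against 394 FPKM. All 3 Si-FIBP#2 samples were above all 3 Si-FIBP#1 samples in both genes, as they were in H2AZ2, in MACROH2A1 and in 20.4% of all genes. Over the 16 alternatives for H3-3A the difference ranged from 0.22 to 0.57 with adjusted p from 0.0036 to 0.116, and over the 15 for H3-3B from 0.28 to 0.49 with adjusted p from 0.0242 to 0.111.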

How the results depend on the processing

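For H2AZ1, H2AX, H1-10 and H2AZ2 the difference from Scramble kept its direction and its side of the threshold under all alternatives, for each siRNA and for both together. The gene values that changed sign were not called. MACROH2A1 with both siRNAs together was -0.021 with TPM scaling, -0.075 with median ratio scaling, -0.043 with the fragment-weighted sum, -0.13 with annotated transcripts only and -0.030 to 0.038 with 1 sample left out. With Si-FIBP#2 alone it was -0.041 with median ratio scaling and -0.10 with annotated transcripts only. MACROH2A2 was -0.029 with Si-FIBP#2 under median ratio scaling and -0.017 to 0.13 with 1 sample left out, and -0.054 to 0.020 for both siRNAs together. H3-3B for both together was -0.034 with median ratio scaling, -0.043 with the fragment-weighted sum and -0.021 to 0.13 with 1 sample left out. H3-3A for both together was -0.14 to 0.033. H1-10 between the siRNAs was 0.0076 with TPM scaling and -0.10 to 0.029 with 1 sample left out. ENST00000511319 of H2AZ1 against its gene with Si-FIBP#1 was called at 1.08 and was -0.16 with diffSplice.

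With 1 sample left out, shares were computed again, and tested for single transcripts by the exact permutation test. The depleted samples less Scramble differed in share by 4.23 to 6.78 percentage points for ENST00000375167 of H2AX, by -2.29 to -1.52 for ENST00000333762 of H1-10, by -5.32 to -3.84 for ENST00000312469 and 5.19 to 7.05 for MSTRG.21769.8 of MACROH2A1, by -0.16 to 3.86 for ENST00000366815 of H3-3A, by -0.061 to 2.5 for H3-3B in both H3.3 genes and by -0.14 to 0.25 for MACROH2A1 in both macroH2A genes. For MSTRG.21769.8, whose unadjusted exact p was 0.0357, it was above 0.05 without Scramble replicate 1 or 3 (0.0714) and without replicate 2 or 3 of Si-FIBP#1 or 1 or 2 of Si-FIBP#2 (0.0536).

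A pseudocount of 0.1 raised the genes over 2-fold to 1498, 1411, 1418 and 172 (Si-FIBP#1, Si-FIBP#2, both, and Si-FIBP#2 against Si-FIBP#1) from 848, 757, 721 and 84. It lowered the transcripts called against their gene to 710, 266 and 955, with 13 between the siRNAs, from 1492, 750, 2000 and 7. DiffSplice called 2893, 2083, 3282 and 545, and a filter of 5 FPKM called 0 between the siRNAs. Between the siRNAs 2304 genes were called, 4100 with the fragment-weighted sum and 1268 to 2821 with 1 sample left out, with 73 to 128 over 2-fold. Of transcripts, 1172 were called there, 424 without a filter, 1955 with a filter of 5 FPKM and 337 to 1621 with 1 sample left out. In the fit of both siRNAs together, 7582 transcripts were called with a filter of 5 FPKM and 7484 to 10739 with 1 sample left out. With Si-FIBP#2 alone, 6050 to 7391 were called with 1 sample left out. No clear pairing by replicate number was seen, with r of -0.057 to 0.10 for same-numbered samples of different groups and -0.14 to 0.049 for others. These ranges overlap. The r are not those of whole libraries, which correlated at 0.956 to 0.983 between groups. With the replicate block 605 transcripts were called between the siRNAs. No call of a member gene changed with this block. Among transcripts, ENST00000381124 of H2AZ2 with Si-FIBP#1 (adjusted p = 0.0757) and ENST00000587171 of H3-3B with Si-FIBP#2 (0.0523) lost theirs in limma. So did ENST00000655399 of H3-3A in the fit of both siRNAs together (0.057). The cause of these shifts was not tested.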

Other observations

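Antisense or overlapping genes lie at 6 of the 8 loci, and the sources used here do not say that strand was used in counting, so reads of a gene and of its antisense partner cannot be told apart. The overlaps were named after their values were seen and were not tested. Inside MACROH2A1, AC026691.1 was listed at a mean of 0.17 FPKM in Scramble, 2.03 after Si-FIBP#1 and 1.79 after Si-FIBP#2. H1FX-AS1, which overlaps H1-10 over 886 nt, was 2.07, 0.91 and 0.75 FPKM. UNK, which overlaps H3-3B over 1123 nt, was 31.6, 26.8 and 28.5 FPKM, and AIFM2, which overlaps MACROH2A2 over 14058 nt, was 10.3, 7.08 and 8.62 FPKM. The antisense genes at H2AZ1 (AC097460.1) and H3-3A (AL512343.2) had means of at most 0.68 FPKM.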
